A study of Mus musculus with 18 samples.

Results

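The forkhead box O (FoxO) factors and the ubiquitin ligases of muscle atrophy were followed as 10 genes, Foxo1, Foxo3, Foxo4, Trim63, Trim54, Trim55, Fbxo32, Klhl40, Klhl41 and Asb2, through the differentiation of mouse myoblasts with and without the nuclear protein LAP2α. The genes were taken by symbol and not by a measured value, but the set was chosen with earlier results of these data known. Counts of members set beside shares of all genes are therefore a description and not a test of the set. All 10 were found among the 19153 genes of the RNA-seq files and all 10 were among the 17672 genes tested. The cells were immortalized myoblasts with a p53 knockout, which both genotypes carried. The wildtype cells (WT) had received the Cas9 plasmid without a guide, and the LAP2α knockout cells (KO) the same plasmid with a guide against the LAP2α isoform of the Tmpo gene. Both were pools of cells sorted in bulk for the plasmid's fluorescence and not single clones. RNA was taken from subconfluent proliferating cells in 20% serum (Prol), from cells in 20% serum that had just become confluent (D0), and from cells on day 2 of differentiation in 5% serum (D2). There were 3 libraries per group, 18 in all. The sources used here do not say whether the replicates were separate cultures, so the p-values measure the spread between these libraries.

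FoxO factors are transcription factors that sit below the insulin and insulin-like growth factor pathway. When that pathway is active, the kinase Akt phosphorylates them and keeps them in the cytoplasm, and when it is quiet they enter the nucleus and activate genes of protein breakdown, autophagy and cell-cycle arrest. In wasting muscle they are best known for driving Fbxo32 (atrogin-1), the substrate receptor of an SCF ubiquitin ligase, and Trim63 (MuRF1), a RING-finger ligase bound to the sarcomere. The other ligase genes belong to the same world of sarcomere turnover. Trim55 (MuRF2) and Trim54 (MuRF3) are the paralogs of Trim63, Klhl40 and Klhl41 encode kelch proteins that bind Cul3 and are mutated in nemaline myopathy, and Asb2 encodes the receptor of a Cul5 ligase that marks filamins for degradation. The activity of FoxO proteins is set largely by phosphorylation and location, which RNA levels do not show.

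Of the ligase genes that rose on day 2 in both genotypes, the upstream sequences are shown for Trim63, Klhl40 and Klhl41. Asb2 rose as well, and its sequences are described below but not shown. The RefSeq promoter table for GRCm38.p6 held 7 of the 10 genes with 8 start sites. It had no entry for Trim55, which also rose. The 250 bases before the start were searched on both strands for the FoxO binding sequence GTAAACA, for the E-boxes CAGCTG and CAGGTG that MyoD family factors bind, and for the MEF2 site and the CArG box. No 2 matches in the windows shown overlapped. The stretches below run 5′ to 3′ on the strand of the gene, with these motifs in capitals, and lie at chr4:134314870-134315119 for Trim63, chr9:121777357-121777606 for Klhl40 and chr2:69669870-69670119 for Klhl41, all on the plus strand.
Trim63: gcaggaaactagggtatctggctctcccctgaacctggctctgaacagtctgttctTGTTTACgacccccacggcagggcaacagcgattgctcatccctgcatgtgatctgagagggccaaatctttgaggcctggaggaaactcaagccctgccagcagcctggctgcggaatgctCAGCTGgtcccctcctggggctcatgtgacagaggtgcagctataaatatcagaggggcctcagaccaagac
Klhl40: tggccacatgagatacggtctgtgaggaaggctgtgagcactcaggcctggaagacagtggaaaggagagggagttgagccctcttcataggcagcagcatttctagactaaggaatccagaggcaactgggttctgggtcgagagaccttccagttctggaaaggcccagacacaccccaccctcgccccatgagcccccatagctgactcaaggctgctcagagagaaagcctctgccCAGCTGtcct
Klhl41: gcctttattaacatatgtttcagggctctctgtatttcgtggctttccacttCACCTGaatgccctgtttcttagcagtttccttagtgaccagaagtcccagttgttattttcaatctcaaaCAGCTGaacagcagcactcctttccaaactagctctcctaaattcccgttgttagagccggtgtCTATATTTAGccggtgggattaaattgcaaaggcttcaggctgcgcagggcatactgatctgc
Trim63 held a FoxO sequence starting at base -194 from the start site and an E-box at -72. Klhl40 had an E-box at -10. Klhl41 had E-boxes at -198 and -127 and a MEF2 site at -63. Of the sequences not shown, Trim54 had a CAGCTG E-box at -113, and the more upstream of the 2 Asb2 start sites had a CArG box at -64. The downstream Asb2 start site, Foxo1 and Foxo3 held none of the 5 motifs in this window. All windows shown hold CAGCTG and neither Asb2 window does, so those shown do not stand for all ligase genes that rose. Among all 32851 promoters of that table, 3.17% held the FoxO sequence, 13% CAGCTG, 17.2% CAGGTG, 2.92% the MEF2 site and 1.47% the CArG box. A match describes the letters only and was not tested as a binding site. Part of the Klhl40 window is covered by an exon of another annotated gene, Gm47108, on the opposite strand.

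The deposited values are CPM, estimated read counts scaled to the size of each library. The 18 libraries held 26437823 to 41619015 estimated counts, and 3 counts, taken as the detection limit, corresponded to 0.0651 to 0.119 CPM, which covers counting error only. Myoblast markers (5 measured) summed to between 39.4 and 68.6 CPM in the Prol and D0 libraries. At D2 they summed to between 377 and 880 CPM. Myod1, Des, Cdh15 and Chrna1 rose from Prol to D2 in both genotypes, and Myf5 did not. On average Myf5 was at 24.5 CPM in WT Prol and 17.6 CPM in WT D2 libraries. In KO cells it was at 23.4 CPM in Prol and 20 CPM at D2. All 8 markers of differentiating muscle, led by Mymk and Myh3, rose from Prol to D2 in both genotypes. Of all genes 16.6% rose in WT and 17.1% in KO cells. Of the other lineages, all 5 fibroblast markers, among them Dpt and Dcn, also rose from Prol to D2 in WT and KO cells, from a sum of 17.2 to 46.9 CPM in the Prol libraries to between 218 and 423 CPM in the D2 libraries. The 4 measured endothelial markers summed to at most 2.74 CPM in any library, the 2 macrophage markers to at most 8 CPM, the 4 Schwann cell and neuron markers to at most 21.2 CPM and the 3 adipocyte markers to at most 31.8 CPM. The 3 smooth muscle markers, which include Des of skeletal muscle, summed to between 51.1 and 332 CPM. The part of the fibroblast markers in the results that follow was not tested, and with bulk RNA a change in the number of cells of a type cannot be told apart from a change in the RNA of each cell. Tmpo, counted over all its isoforms, was at 300 ± 21.8 CPM (SD, n = 3) in WT Prol and 246 ± 16.6 (SD, n = 3) in KO Prol libraries, which did not overlap, whereas the genotypes overlapped at D0 and D2. A small edit need not remove the transcript, so the RNA level is only a partial check of the labels. Trp53, the gene of p53, was at 40.1 to 162 CPM in the 18 libraries, so its knockout does not show at the gene level.

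In each group replicate 1 differed from the other replicates in a way that followed transcript length. In WT D2 the log2 difference between replicate 1 and the mean of the other libraries had a median of -0.44 in the 4406 genes with the shortest transcripts and 0.53 in the 4401 with the longest. The same medians were -0.45 and 0.44 in KO D2, -0.39 and 0.47 in WT D0, and -0.17 and 0.14 in WT Prol. The transcripts of Foxo1, Foxo3 and Fbxo32, at 8665, 6848 and 6976 bases, belong to the longest of these, which began at 4310 bases. In WT D2, Foxo1 was 1.24 and Foxo3 1.59 higher in replicate 1 on the log2 scale. The members did not all follow the trend, since in WT D2 replicate 1 was also 1.26 higher for Trim54 and 1.01 higher for Trim63, with transcripts of 1434 and 1886 bases, and in KO D2 it was 0.01 higher for Fbxo32. The cause was not tested. The comparisons were also fitted without replicate 1 of all 6 groups, which leaves 12 libraries. Values of that fit stand beside part of the results and are not given for every value it changed. This alternative was chosen after seeing the data.

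Between proliferation and day 2, the members split into a set that was at or below 2.42 CPM before D2 and a set that was already higher and changed by at most 2.73-fold. Trim63, Trim55, Klhl40, Klhl41 and Asb2 rose in both genotypes with fold changes between 10.9 and 547. Foxo4 rose in both genotypes, Trim54 passed the test in WT and Fbxo32 in KO cells, and Foxo1 and Foxo3 passed in neither. In WT D2/Prol 7 of the 10 members were higher at an adjusted p-value under 0.05 (limma, Benjamini-Hochberg over all genes tested), where 16.6% of all genes were higher. In KO D2/Prol 7 of 10 were higher, against 17.1% of all genes. No member was lower. Trim63, Trim55, Klhl40 and Asb2 entered the test only through the D2 groups, in which they were high. In no Prol or D0 group did they have over 5 counts in all 3 libraries. Their calls are thus not independent of that filter, and the counts beside the shares are a description. The median log2 fold change of the members was 3.28 in WT and 2.32 in KO cells, against -0.01 and 0.02 for all genes. The libraries of both states did not overlap for 9 of the 10 members in WT cells and for 9 in KO cells, where 23% and 25.1% of all genes were higher without overlap. With the replicate number as a block, 9 of 10 members passed in KO D2/Prol, against 24.6% of all genes.

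**Figure D1:**
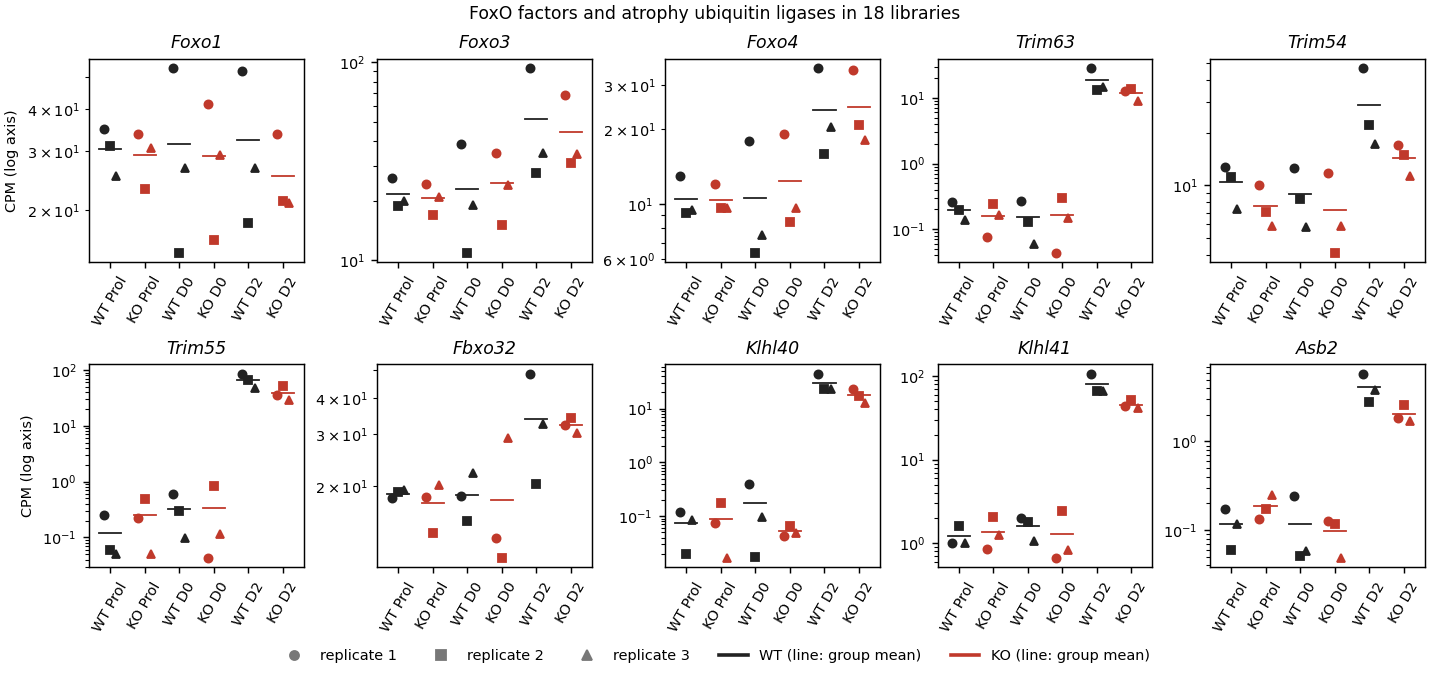
Level of each of the 10 genes in each of the 18 libraries, in CPM on a log axis whose range differs between panels. Points are libraries with a shape for each replicate number, horizontal lines are group means, and black and red mark WT and KO. Trim63, Trim55, Klhl40, Klhl41 and Asb2 sat at or below 2.42 CPM before D2 and rose at D2, while Foxo1, Foxo3 and Foxo4 show replicate 1 as the highest library of every group.

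Foxo1 (chr3:52268336-52353221, plus strand) encodes the FoxO factor best known for its role in glucose metabolism and in restraining myoblast differentiation. Positions are those of GENCODE M21 on GRCm38. Its levels in WT Prol libraries were 34.9, 31.0 and 25.2 CPM for replicates 1 to 3, and in WT D2 libraries 51.9, 18.3 and 26.6 CPM. The D2 libraries lay both above and below the Prol libraries. The log2 fold change in WT D2/Prol was -0.04 (95% interval -0.98 to 0.91, adjusted p = 0.965). In KO cells the levels were 33.6, 23.1 and 30.6 CPM in Prol and 33.6, 21.3 and 21.0 CPM in D2 libraries, and the log2 fold change was -0.22 (95% interval -1.16 to 0.72, adjusted p = 0.755). The groups overlapped in each genotype, and the intervals leave room for a 1.5-fold change in either direction. The sign in WT cells turned with the scaling, to 0.13 with library totals alone, and without replicate 1 of all groups the values were -0.34 in WT and -0.33 in KO cells.

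Foxo3 (chr10:42181841-42276755, minus strand), the factor that drives autophagy genes and Fbxo32 in wasting muscle, was at 26.1, 18.8 and 20.0 CPM in WT Prol and at 93.4, 27.7 and 34.7 CPM in WT D2 libraries. In KO cells the levels were 24.2, 16.9 and 20.8 CPM in Prol and 68.3, 31.0 and 34.3 CPM in D2 libraries. No D2 library fell within the range of the Prol libraries, and replicate 1 was by far the highest at D2 in both. The mean level was 2.40-fold higher at D2 in WT and 2.16-fold higher in KO cells, with log2 fold changes of 1.06 (standard error, SE, 0.48, adjusted p = 0.109) and 1.03 (SE 0.48, adjusted p = 0.118). Neither passed the test. In KO D2/Prol, where the replicate numbers were taken to pair the libraries, the block gave an adjusted p of 0.00196. Over the 10 alternatives that leave out no single library the adjusted p ranged from 0.00196 to 0.123. Within each replicate number the D2 library was higher by 3.58, 1.47 and 1.73 times in WT and by 2.83, 1.84 and 1.65 times in KO cells. In WT D2/Prol the replicate numbers were not taken to pair the libraries. Without replicate 1 of all groups the log2 fold change was 0.68 in WT (adjusted p = 0.0956) and 0.80 in KO cells (adjusted p = 0.0541).

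Foxo4 (chrX:101254528-101260873, plus strand) is the FoxO gene on the X chromosome. In the fit without a block it was the only one of the FoxO members that passed the test in both genotypes. It was at 12.9, 9.23 and 9.50 CPM in WT Prol and 34.9, 15.8 and 20.4 CPM in WT D2 libraries. In KO cells it was at 12, 9.67 and 9.67 CPM in Prol and 34.5, 20.7 and 18.1 CPM in D2 libraries. All D2 libraries were above all Prol libraries of the same genotype. The log2 fold change was 1.11 in WT (SE 0.40, adjusted p = 0.0469) and 1.18 in KO cells (SE 0.40, adjusted p = 0.0343). These calls were close to the threshold. With any 1 library left out, they held in 1 of 6 fits in each genotype, with adjusted p from 0.034 to 0.172 in WT, where only the fit without WT D2 replicate 2 passed, and from 0.0363 to 0.13 in KO cells, where only the fit without KO D2 replicate 3 passed. Without replicate 1 of all groups both held, at 0.94 in WT (adjusted p = 0.00417) and 1.00 in KO cells (adjusted p = 0.00284). For Foxo4 in KO D2/Prol, the fit with the replicate block gave an adjusted p of 0.000162. In WT D2/Prol, where the numbers were not taken to pair the libraries, that fit gave 0.000291.

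The fourth FoxO gene of the mouse, Foxo6, is not one of the 10 members. It was at 0.285 ± 0.145 CPM in WT Prol and 3.25 ± 2.05 CPM in WT D2 libraries (SD, n = 3), a log2 fold change of 3.51 (adjusted p = 0.00595). In KO cells it was at 0.357 ± 0.139 CPM in Prol and 1.82 ± 0.767 CPM at D2 (SD, n = 3), a log2 fold change of 2.33 (adjusted p = 0.0513).

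The MuRF genes encode RING-finger ligases that bind titin, sarcomeric myosin or microtubules. Trim63 (MuRF1, chr4:134315120-134329629, plus strand) had 9.1, 4.37 and 3.52 estimated counts in the 3 WT Prol libraries, or 0.257, 0.193 and 0.136 CPM, and reached 28.2, 13.2 and 14.8 CPM at D2. In KO cells it was at 0.0749, 0.239 and 0.165 CPM in Prol and at 12.8, 13.6 and 8.96 CPM in D2 libraries. All D2 libraries stood far above all Prol libraries. The D2 mean was 95.9-fold the Prol mean in WT and 73.8-fold in KO cells, with log2 fold changes of 6.55 (SE 0.67, adjusted p = 3.3e-06) and 6.34 (SE 0.67, adjusted p = 4.62e-06). As the Prol values rest on a few counts, these sizes depend on the 0.5 counts that the authors added, and with 1 CPM added to each value they were 3.97 and 3.45.

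Trim55 (MuRF2, chr3:19644474-19692421, plus strand) had the largest rise of the members in WT cells. It was at 0.254, 0.0593 and 0.0506 CPM in WT Prol libraries, or 9, 1 and 1 estimated counts, and at 85.9, 65.6 and 47.7 CPM at D2. In KO cells it went from 0.225, 0.487 and 0.0499 CPM to 36.1, 50.9 and 29.3 CPM. The log2 fold change was 9.46 in WT (SE 1.01, adjusted p = 4.43e-06) and 7.74 in KO cells (SE 1.01, adjusted p = 2.9e-05), or 5.87 and 4.97 with 1 CPM added to each value. Its annotated span overlaps BC002189 on the same strand.

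Trim54 (MuRF3, chr5:31116712-31137630, plus strand) differed from its paralogs in that it was already present in proliferating cells, at 12.8, 11.2 and 7.34 CPM in WT and 10.1, 7.03 and 5.84 CPM in KO libraries. At D2 it was at 46.5, 22.0 and 17.2 CPM in WT and at 16.9, 15.0 and 11.3 CPM in KO libraries. The D2 libraries were above the Prol libraries in both genotypes. It rose in WT cells by 1.35 on the log2 scale (SE 0.42, adjusted p = 0.0224). This call was lost without WT D2 replicate 1 (0.93, adjusted p = 0.102) and without WT Prol replicate 3 (1.12, adjusted p = 0.105), and held in the other 4 of 6 fits. In KO cells the log2 fold change was 0.93 (SE 0.42, adjusted p = 0.104), and 0.00316 was the adjusted p with the replicate number as a block. Without replicate 1 of all groups it passed in both genotypes, at 1.10 in WT (adjusted p = 0.0174) and 1.03 in KO cells (adjusted p = 0.0226). The difference between the genotypes in this change was not significant (log2 -0.42, unadjusted p = 0.491), and without replicate 1 of all groups it was -0.07. No stretch of 50 bases, the read length, was shared between the longest coding transcript of any of the 3 MuRF genes and another gene.

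Fbxo32 (atrogin-1, chr15:58175879-58214932, minus strand) was present in all groups and had smaller differences than the MuRF genes. It was at 18.1, 19.1 and 19.3 CPM in WT Prol and at 48.5, 20.3 and 32.7 CPM in WT D2 libraries. The lowest of these D2 libraries was just above the highest Prol library. In KO cells it was at 18.3, 13.8 and 20.1 CPM in Prol and 32.4, 34.1 and 30.4 CPM in D2 libraries. The D2 libraries were above the Prol libraries in both genotypes. The log2 fold change was 0.76 in WT (SE 0.33, adjusted p = 0.0934) and 0.91 in KO cells (SE 0.33, adjusted p = 0.0432). The WT value passed only when WT D2 replicate 2 was left out (1.08, adjusted p = 0.0249) among the 6 fits that leave out a library. The KO call was lost in each of the 6 fits, with adjusted p from 0.0599 to 0.149, and its log2 fold change there ranged from 0.75 to 1.03. Without replicate 1 of all groups the values were 0.43 in WT (adjusted p = 0.449) and 0.95 in KO cells (adjusted p = 0.0947). For Fbxo32 in KO D2/Prol, the fit with the replicate block gave an adjusted p of 0.0109. In WT D2/Prol, where the numbers were not taken to pair the libraries, that fit gave 0.0304. Between the genotypes this change of Fbxo32 did not differ significantly (limma interaction, log2 0.155, unadjusted p = 0.742).

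Klhl40 and Klhl41 encode muscle kelch proteins that stabilize thin-filament proteins such as nebulin and leiomodin. Klhl40 (chr9:121777607-121783818, plus strand) had 4, 0 and 2 estimated counts in the WT Prol libraries and 2, 5 and 0 in the KO Prol libraries. At D2 it was at 44.7, 23.1 and 23.0 CPM in WT and at 23.1, 17.5 and 12.8 CPM in KO libraries. Its log2 fold change was 8.94 in WT (SE 0.99, adjusted p = 6.12e-06) and 8.17 in KO cells (SE 0.99, adjusted p = 1.41e-05), or 4.79 and 4.08 with 1 CPM added to each value. Klhl41 (chr2:69670120-69684230, plus strand) was low but measurable before D2, at 0.998, 1.61 and 1.02 CPM in WT Prol and 0.845, 2.04 and 1.27 CPM in KO Prol libraries. At D2 it reached 107, 66.1 and 66.7 CPM in WT and 44.2, 51.7 and 41.3 CPM in KO libraries, the highest level of the members per transcript length. It rose by 6.04 in WT (SE 0.44, adjusted p = 2.45e-07) and by 5.13 in KO cells (SE 0.44, adjusted p = 9.66e-07) on the log2 scale, or by 5.17 and 4.32 with 1 CPM added to each value. Of the 2480 stretches of 50 bases in its transcript, 4.52% also occur in other genes.

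Asb2 (chr12:103321142-103356001, minus strand), the Cul5 receptor that targets filamins, rose from 0.174, 0.0593 and 0.118 CPM in WT Prol to 5.82, 2.80 and 3.84 CPM in WT D2 libraries. In KO cells it rose from 0.135, 0.173 and 0.250 CPM to 1.85, 2.55 and 1.69 CPM. It was the lowest of the members at D2, also per transcript length. The log2 fold change was 5.22 in WT (SE 0.61, adjusted p = 9.82e-06) and 3.47 in KO cells (SE 0.61, adjusted p = 0.000403), or 2.17 and 1.34 with 1 CPM added to each value. The calls for Trim63, Trim55, Klhl40, Klhl41 and Asb2 held in each of the 6 fits that leave out a library, in both genotypes. They also held without replicate 1 of all groups in the 4 comparisons with D2, where the highest adjusted p was 0.00218, for Asb2 in KO D2/Prol.

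**Figure D2:**
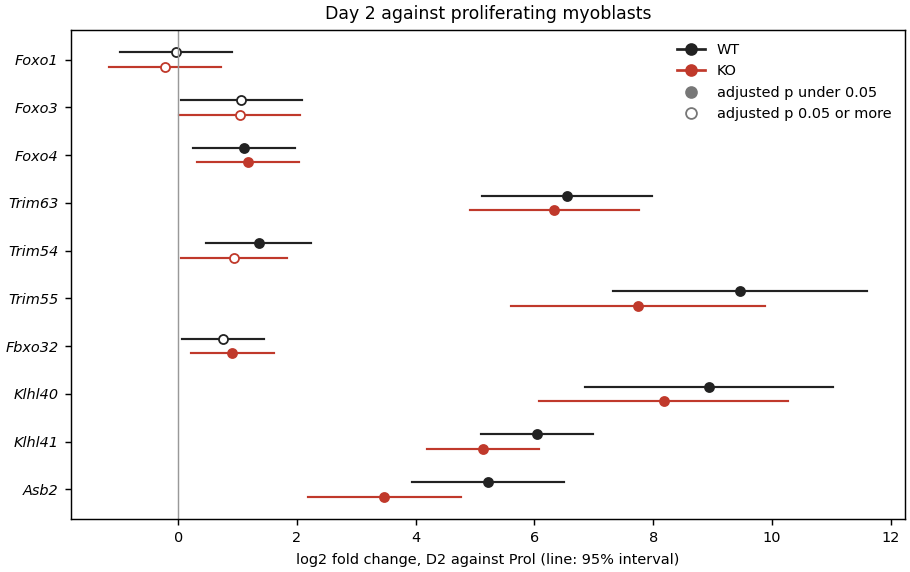
Log2 fold change of each gene between D2 and Prol, in WT (black) and KO cells (red), with lines for the 95% interval of the limma fit. Filled points had an adjusted p-value under 0.05, as 7 of 10 did in each genotype. Trim63, Trim55, Klhl40, Klhl41 and Asb2 lie to the right of the others, and Foxo1 lies near 0.

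Per kilobase of the longest coding transcript, the levels of the members in WT Prol libraries were led by Trim54 at 7.29 ± 1.96 CPM per kilobase, followed by Foxo1 at 3.51 ± 0.567, Foxo4 at 3.33 ± 0.640, Foxo3 at 3.16 ± 0.568 and Fbxo32 at 2.70 ± 0.0890 (SD, n = 3). The other 5 members were at 0.479 or below. From Foxo1 to Fbxo32, neighbours in this order differed by less than the larger of their SDs. At D2 in WT cells the order had turned, with Klhl41 at 31.6 ± 9.29, Trim55 at 25.6 ± 7.36, Trim54 at 19.9 ± 11, Klhl40 at 12.8 ± 5.26 and Trim63 at 9.92 ± 4.36 CPM per kilobase (SD, n = 3). Foxo3 at 7.59 ± 5.27, Foxo4 at 7.50 ± 3.15, Fbxo32 at 4.85 ± 2.03, Foxo1 at 3.73 ± 2.02 and Asb2 at 1.54 ± 0.570 followed. Neighbours in this order differed by less than the larger of their SDs, except Foxo1 and Asb2. In KO D2 libraries the first places were again held by Klhl41 at 18.1 ± 2.13 and Trim55 at 14.9 ± 4.27 CPM per kilobase (SD, n = 3).

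The comparison with confluent cells asked how D2 differed from cells at the start of differentiation. The lower serum and the time in culture differ together here and cannot be told apart. In WT D2/D0 7 of 10 members were higher at an adjusted p-value under 0.05, where 14.7% of all genes were. In KO D2/D0 6 of 10 were higher, against 15.3% of all genes. Here too Trim63, Trim55, Klhl40 and Asb2 entered the test only through the D2 groups. With the replicate block 9 of 10 passed in KO D2/D0, against 23.6% of all genes. The libraries did not overlap for 6 of the 10 members in each genotype, where 18.7% and 20.2% of all genes were higher without overlap. Trim63, Trim55, Klhl40, Klhl41 and Asb2 passed in both genotypes, with log2 fold changes from 5.46 for Asb2 to 8.36 for Klhl40 in WT and from 4.47 for Asb2 to 8.40 for Klhl40 in KO cells. With 1 CPM added to each value these were 2.17 for Asb2 and 4.68 for Klhl40 in WT and 1.45 and 4.12 in KO cells, and Trim55 had the highest log2 fold change, 5.64 in WT and 4.91 in KO cells. Klhl40 was at the detection limit in the KO D0 libraries, with 1, 2 and 1 counts, and was at least 205-fold higher at D2 against 3 counts in each library.

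Foxo4 rose in WT D2/D0 by 1.24 on the log2 scale (SE 0.40, adjusted p = 0.0326) but its libraries overlapped, since WT D0 replicate 1 was at 17.9 CPM and WT D2 replicate 2 at 15.8 CPM. That call was lost in 4 of the 6 fits that leave out a library, namely those without WT D0 replicate 2 or 3 or WT D2 replicate 1 or 3, with adjusted p up to 0.133, and held without replicate 1 of all groups (1.37, adjusted p = 0.000568). In KO D2/D0 it did not pass (1.01, adjusted p = 0.0714), and it passed with the replicate block (adjusted p = 0.000654) and without replicate 1 of all groups (1.09, adjusted p = 0.00182). Trim54 rose in WT D2/D0 by 1.62 (SE 0.42, adjusted p = 0.00961), a call lost without WT D0 replicate 3 (adjusted p = 0.0587), and had a log2 fold change of 1.11 in KO D2/D0 (adjusted p = 0.0594, with the replicate block 0.00099). Trim54 passed in both without replicate 1 of all groups, at 1.48 in WT (adjusted p = 0.00428) and 1.40 in KO cells (adjusted p = 0.00556). Fbxo32 was at 18.5, 15.2 and 22.1 CPM in WT D0 and 13.2, 11.3 and 29.2 CPM in KO D0 libraries. It passed in KO D2/D0 (0.98, adjusted p = 0.0344) but held in only 1 of the 6 fits that leave out a library, the one without KO D0 replicate 3, and did not pass in WT D2/D0 (0.79, adjusted p = 0.0891). Fbxo32 passed in neither without replicate 1 of all groups, at 0.83 in KO (adjusted p = 0.15) and 0.49 in WT cells (adjusted p = 0.393). Foxo3 had log2 fold changes of 1.16 in WT (adjusted p = 0.09) and 0.85 in KO cells (adjusted p = 0.212, with the replicate block 0.00841). Foxo3 passed without replicate 1 of all groups in WT D2/D0 (1.11, adjusted p = 0.0154) and not in KO D2/D0 (0.78, adjusted p = 0.0626). Foxo1 was at 52.9, 14.9 and 26.7 CPM in WT D0 libraries, a range wider than any difference between its group means.

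No member passed the test between proliferating and confluent cells. In WT D0/Prol and in KO D0/Prol 0 of 10 members had an adjusted p-value under 0.05 and 0 of 10 an unadjusted p-value under 0.05 in limma, also with the replicate block and with voom weights and a random block. Over all genes 0.00566% and 0% passed with adjustment and 2.17% and 1.12% without. The largest log2 fold change was that of Trim55 in WT cells, 1.49 (SE 1.01, unadjusted p = 0.158), at 0.592, 0.293 and 0.0978 CPM in the D0 libraries. In KO cells the libraries of Asb2 were lower at D0 than in Prol without overlap, 1 of 10 members where 1.94% of all genes were, at 0.128, 0.118 and 0.0484 CPM, or 4, 4 and 1 counts (unadjusted p = 0.12). Without replicate 1 of all groups, Foxo4 in WT cells (-0.43, unadjusted p = 0.0444, adjusted p = 0.819) and Asb2 in KO cells (-1.46, unadjusted p = 0.0336, adjusted p = 0.976) had unadjusted p-values under 0.05.

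In proliferating and in confluent cells no member passed the test between KO and WT with adjustment. In KO/WT Prol and KO/WT D0 0 of 10 members passed with or without adjustment in limma, also with the replicate block and with voom weights and a random block. Over all genes 0.00566% and 0% passed with adjustment and 1.11% and 1.47% without. The lowest unadjusted p-value was 0.233, for Asb2 in Prol, where its 3 KO libraries had 4, 5 and 7 and its WT libraries 6, 1 and 3 counts. Trim54 was lower in the KO library of each replicate number in Prol, at 0.786, 0.625 and 0.796 times the WT library, with a log2 fold change of -0.45 (SE 0.42, unadjusted p = 0.298, with the replicate block 0.0662). At D0 Foxo4 was higher in the KO library of each replicate number, at 1.06, 1.33 and 1.28 times the WT library. The share of all genes with all 3 ratios on 1 side was not computed in Prol or at D0. Trim63 had a log2 fold change of -0.03 in KO/WT D0, and without replicate 1 of all groups it was 1.28 (unadjusted p = 0.0344, adjusted p = 1).

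At day 2 the KO values of the ligase genes lay mostly below those of WT, but none of the 10 members passed. In KO/WT D2 8 of 10 members had a log2 fold change below 0, and the median was -0.67 against -0.01 for all genes. With adjustment 0 of 10 passed, as did 0% of all genes, and without adjustment 0 of 10 had p under 0.05 in limma, against 1.96% of all genes. With the replicate block 2 of 10 members, Trim54 and Klhl41, had an unadjusted p-value under 0.05 and were lower in KO, against 2.76% of all genes, and none passed with adjustment. Of all genes 0 passed with adjustment, also with voom weights or the replicate block. The replicate numbers were taken to pair the libraries in KO/WT D2, since same-numbered libraries correlated above 0.1. The labels do not state a pairing. The methods of the study state a cut of an unadjusted p-value under 0.05 and an absolute log2 fold change over 1.5. They also ask for 10 CPM in at least 1 library, which was left out of the cut here. By this cut 0 of 10 members were lower in KO cells in limma, against 0.294% of all genes. With voom weights and a random replicate block 0 of 10 were lower, against 0.402% of all genes. A rule with the same p-value cut and a looser change, over 1.5-fold, also asked for at least 10 CPM in 1 library. This rule gave 0 of 10 in limma, against 0.255% of all genes. With voom weights and the random block it gave 4 of 10, Trim54, Trim55, Klhl40 and Klhl41, against 0.939% of all genes. The libraries did not overlap and were lower in KO cells for 3 of 10 members, Trim54, Klhl41 and Asb2, against 3.81% of all genes.

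Trim54 had the lowest unadjusted p-value. Its 3 WT libraries were at 46.5, 22.0 and 17.2 CPM and its 3 KO libraries at 16.9, 15.0 and 11.3 CPM. The highest KO library was just below the lowest WT library, and WT replicate 1 stood apart from the rest. The log2 fold change was -0.87 (95% interval -1.76 to 0.02, unadjusted p = 0.0551, adjusted p = 1), with the replicate block the unadjusted p was 0.00168 and the adjusted p 0.475, and over all alternatives the adjusted p ranged from 0.278 to 1. Without WT D2 replicate 1 the log2 fold change was -0.45, and without replicate 1 of all groups -0.58. By replicate number the KO library was at 0.364, 0.681 and 0.660 times the WT library.

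Klhl41 was at 107, 66.1 and 66.7 CPM in WT and 44.2, 51.7 and 41.3 CPM in KO D2 libraries, with a log2 fold change of -0.77 (95% interval -1.71 to 0.16, unadjusted p = 0.0988, with the replicate block 0.0496). Asb2 was at 5.82, 2.80 and 3.84 CPM in WT and 1.85, 2.55 and 1.69 CPM in KO D2 libraries, with a log2 fold change of -0.99 (95% interval -2.28 to 0.30, unadjusted p = 0.122). Each KO library of both genes was below each WT library. Without replicate 1 of all groups the values were -0.52 for Klhl41 and -0.66 for Asb2. Trim55 (-0.77, 95% interval -2.91 to 1.36), Klhl40 (-0.73, 95% interval -2.82 to 1.36) and Trim63 (-0.61, 95% interval -2.04 to 0.83) had overlapping libraries. Of these, Trim55 and Klhl40 were lower in the KO library of all 3 replicate numbers, as were Trim54, Klhl41 and Asb2, and Trim63 in 2 of 3. The log2 fold changes of these 6 ligase genes kept their sign in all fits that leave out a library. How many of all genes keep to 1 side in all 3 replicate numbers was not computed. The counts of replicate numbers thus have no background here.

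The FoxO genes and Fbxo32 showed no difference of that size. The log2 fold changes in KO/WT D2 were -0.25 for Foxo1 (95% interval -1.19 to 0.69), -0.10 for Foxo3 (95% interval -1.13 to 0.92), 0.06 for Foxo4 (95% interval -0.79 to 0.92) and 0.02 for Fbxo32 (95% interval -0.68 to 0.72). Their libraries overlapped, and the sign of each of the 4 values changed in at least 1 of the 6 fits that leave out a library. The summed level of the 8 markers of differentiating muscle was also lower in the KO D2 libraries, at 1529 to 1948 CPM against 2567 to 5203 CPM in WT D2 libraries, with a median log2 fold change of -0.92 and 0 of 8 passing the test. The part of these markers in the values of the ligase genes was not tested.

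**Figure D3:**
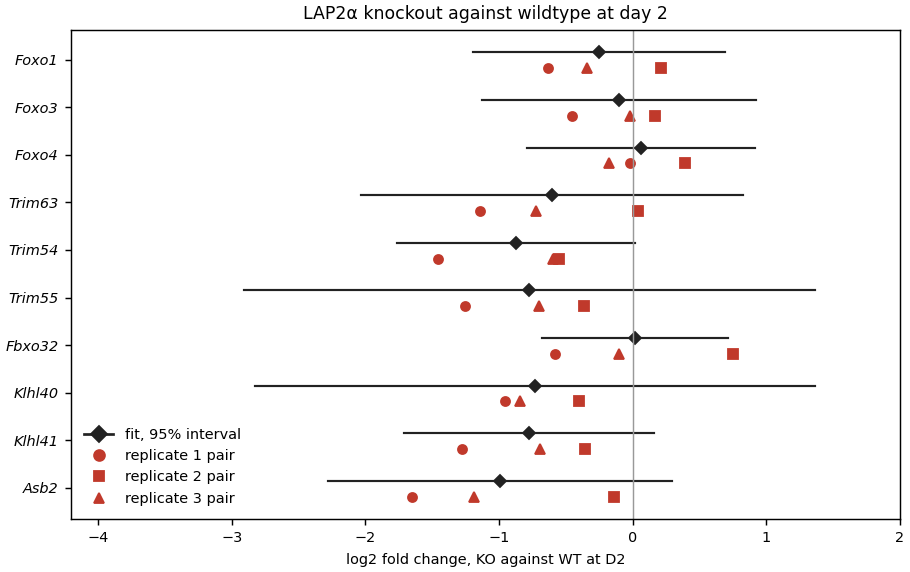
Log2 fold change of each gene between KO and WT at D2. Diamonds with lines give the limma fit and its 95% interval, and red points give the log2 of KO to WT ratios within a replicate number. The intervals of all 10 genes include 0, and for Trim54, Trim55, Klhl40, Klhl41 and Asb2 all 3 ratios lie below 0.

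The change from Prol to D2 was compared between the genotypes with an interaction term. Of 10 members 0 passed with adjustment (0% of all genes) and 0 without (0.945% of all genes) in limma, and of all genes 0 passed with adjustment also with voom weights or the replicate block. The largest difference was that of Asb2, -1.74 on the log2 scale (95% interval -3.56 to 0.08, unadjusted p = 0.0592, with the replicate block 0.0441, without replicate 1 of all groups 0.0407, adjusted p = 1 in all 3). Trim55 was at -1.72 (95% interval -4.74 to 1.30) and Klhl41 at -0.91 (95% interval -2.24 to 0.41), and the Prol values of Asb2 and Trim55 rest on a few counts. With 1 CPM added to each value the order turned, with Trim55 at -0.91, Klhl41 at -0.85 and Asb2 at -0.82. Foxo3 and Foxo4 were at -0.03 and 0.07.

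Trim55, Klhl40 and Asb2 had the highest log2 fold changes of their symbol families in D2/Prol in the main fit. The place of Klhl40 rests on few Prol counts. With 1 CPM added to each value Klhl41 was above it, at 5.17 against 4.79 in WT and 4.32 against 4.08 in KO cells. The ranks below were computed without that addition. Of 48 Trim genes tested, Trim55 ranked 1, Trim63 3 and Trim54 10 by log2 fold change in WT D2/Prol. In the Trim family 8 genes rose and 7 fell in WT cells, with a family median of 0.25. Between Trim55 and Trim63 stood Trim72, which encodes the membrane repair protein MG53, at 7.17 (adjusted p = 1.09e-06). Of 31 Klhl genes, Klhl40 ranked 1 and Klhl41 3, on either side of Klhl31 at 6.24 (adjusted p = 1.44e-06), and 11 of the family rose and 4 fell. Asb2 ranked 1 of 11 Asb genes, with 4 that rose and 1 that fell, Asb4 at -2.22 (adjusted p = 5.78e-06). Fbxo32 ranked 9 of 32 Fbxo genes, among which 7 rose and 4 fell and Fbxo36 led at 2.14 (adjusted p = 0.00025). In KO cells Trim55, Klhl40 and Asb2 again ranked 1 in their families, and Fbxo32 8. The counts are read against 16.6% of all genes that rose and 14.1% that fell in WT D2/Prol, and 17.1% and 15.2% in KO D2/Prol.

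**Figure D4:**
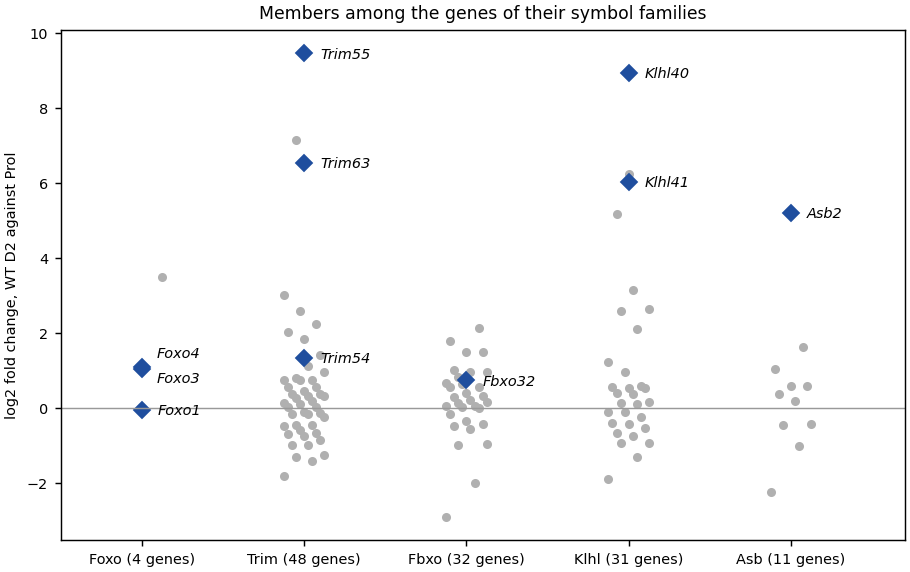
Log2 fold change in WT D2/Prol of the tested genes whose symbols begin with Foxo, Trim, Fbxo, Klhl or Asb followed by a number. Blue diamonds mark the 10 members and grey points the other genes of each family, spread sideways only for legibility. Trim55, Klhl40 and Asb2 are the highest of their families, and Fbxo32 lies within its family. With 1 CPM added to each value, which is not drawn, Klhl41 was above Klhl40.

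Most genes of the insulin and Akt pathway that acts upstream of FoxO did not pass. Of 22 tested, 4 rose and 2 fell in WT D2/Prol, where 16.6% of all genes rose and 14.1% fell. In KO D2/Prol 5 rose and 2 fell, where 17.1% of all genes rose and 15.2% fell. The growth factor genes Igf2 (4.63, adjusted p = 5.99e-05) and Igf1 (4.11, adjusted p = 7.54e-05) had the largest rises in WT cells, and Pik3cb (-1.49, adjusted p = 0.0438) and Akt1 (-0.67, adjusted p = 0.0396), which encode a PI3 kinase subunit and a kinase that phosphorylates FoxO, fell. In KO cells Igf2 rose by 4.45 and Igf1 by 3.86, Akt1 fell by 0.74 (adjusted p = 0.0238), and Pik3cb was at -1.16 (adjusted p = 0.111).

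Known FoxO targets outside the ligases moved in both directions. Of 18 tested, 10 rose and 3 fell in WT D2/Prol, where 16.6% of all genes rose and 14.1% fell. In KO D2/Prol 9 rose and 2 fell, where 17.1% of all genes rose and 15.2% fell. The medians were 1.00 in WT and 1.01 in KO cells. The largest rises in WT cells were those of Klf15 (4.09, adjusted p = 0.00252), a transcription factor of amino acid catabolism, and Pik3ip1 (2.94, adjusted p = 0.000263), an inhibitor of PI3 kinase. Klf15 was at 0.0953 CPM in WT Prol and 1.39 CPM in WT D2 libraries on average. The largest falls were those of Pdk4 (-1.98, adjusted p = 4.73e-05), a kinase that blocks pyruvate dehydrogenase, from 479 to 124 CPM, and Cited2 (-1.61, adjusted p = 0.00321).

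Of 25 autophagy and lysosome genes, 8 rose and 0 fell in WT D2/Prol, where 16.6% of all genes rose and 14.1% fell. In KO D2/Prol 9 rose and 0 fell, where 17.1% of all genes rose and 15.2% fell. With the replicate block 14 rose in KO D2/Prol, against 24.6% of all genes. Counts of the other lists in this paragraph are read against the same shares of all genes. Ctsd, a lysosomal protease, rose by 1.83 (adjusted p = 1.52e-05) and Lamp2, a lysosomal membrane protein, by 1.78 (adjusted p = 1.23e-06) in WT cells, and by 1.94 and 2.01 in KO cells. Of 19 other ubiquitin ligases linked to muscle wasting or growth, 17 did not pass in either genotype. Only Fbxl22, an F-box gene of the sarcomere, rose (3.72 in WT, adjusted p = 0.000303, and 4.12 in KO cells, adjusted p = 0.000121), and only Fbxo21 fell (-0.96 in WT, adjusted p = 0.0184, and -0.95 in KO cells, adjusted p = 0.0182). None of the 12 scaffold and adaptor genes of the cullin ligases passed in WT D2/Prol or KO D2/Prol, with 0 of 12 rising and 0 of 12 falling, and with the replicate block 7 fell in KO D2/Prol, against 23.9% of all genes. Their median log2 fold change was -0.21 in WT and -0.35 in KO cells.

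Known clients and partners of the ligases, which include sarcomere proteins, rose in 9 of 17 cases in each genotype. Of all genes 16.6% rose in WT D2/Prol and 17.1% in KO D2/Prol. None of the 17 fell, while 2 fell with the replicate block in KO D2/Prol, against the same 23.9% of all genes. Lmod3, the thin-filament protein bound by Klhl40, rose by 10.13 in WT (adjusted p = 4.52e-06) and 8.07 in KO cells (adjusted p = 3.77e-05), and Tnni2, a troponin, by 9.82 and 8.27 (adjusted p = 6.86e-07 and 2.93e-06). In KO/WT D2 no gene of these pathway lists passed the test.

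The genes whose log2 CPM followed each member most closely over the 18 libraries are given as a description. The 3 genes with the highest Pearson correlation were Klhl41, Atp2a1 and Myom1 for Trim63 (r = 0.988, 0.987 and 0.987), Myl1, Tnni2 and Mybph for Trim55 (r = 0.991, 0.991 and 0.987), and Iffo1, Tnnc1 and Atp2a1 for Klhl41 (r = 0.992, 0.991 and 0.991). For Klhl40 they were Synpo2l, Xirp1 and Acta1 (r = 0.985, 0.985 and 0.983) and for Asb2 Ccdc141, Olfm1 and Frmpd1 (r = 0.978, 0.977 and 0.976). Foxo3 was closest to Edem3, Trappc9 and Shisa5 (r = 0.985, 0.981 and 0.978) and Foxo4 to Mgrn1, Ube2h and Bsdc1 (r = 0.990, 0.985 and 0.985). The values were lower for Foxo1 with Plxnb2, Pakap and Cbfa2t2 (r = 0.953, 0.950 and 0.943), for Trim54 with Ror1, Lrch1 and Slc9a3r2 (r = 0.937, 0.934 and 0.917) and for Fbxo32 with Nes, Srgap3 and Tnik (r = 0.907, 0.893 and 0.892). All points of such a pair come from the same libraries and share their depth, their state and the length trend of replicate 1, so these values describe likeness only.

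Once the group means were removed, which leaves the spread between replicates, the FoxO genes still varied together over the 18 libraries (r = 0.969 for Foxo1 and Foxo3, 0.937 for Foxo3 and Foxo4, 0.921 for Foxo1 and Foxo4). Foxo3 and Fbxo32 were at 0.471 and Foxo3 and Trim63 at 0.058 by the same measure. Trim54 and Foxo4 were at 0.810 and Trim63 and Klhl41 at 0.844. The replicate differences that the FoxO genes share include the higher replicate 1, and the part of transcript length in them was not tested.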

How the data were processed

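RNA of 18 libraries, 3 in each of 6 groups, was sequenced by the authors as stranded, poly(A)-selected, single-end reads. The authors trimmed the reads with cutadapt, aligned them with NextGenMap to GRCm38, estimated counts per gene with RSEM, scaled the totals with edgeR (TMM) and tested with limma-voom and the sequencing lane as a block. The lane is not given in the sources used here. The deposited values are CPM, the estimated count plus 0.5 counts divided by the scaled library total, for 19153 genes per library. The estimated counts were recovered from each file's lowest value. Of the counts under 20, between 41.9% and 54.8% per library were whole within 0.01, so the CPM were tested and not the counts.

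A gene was kept if any group had over 5 estimated counts in each of its 3 libraries, 17672 in all. Their log2 values, computed from the deposited CPM, were fitted with limma 3.58.1 in R 4.3.3 (lmFit, eBayes with a trend) with 1 term of 6 groups over 18 libraries, without a block. P-values were two-sided and Benjamini-Hochberg adjusted over 17672 genes in each of 10 comparisons, with a threshold of 0.05. The script was tested on simulated data. Samples were grouped by the titles in the labels. The sequences and transcripts came from RefSeq (GRCm38.p6) and GENCODE M21, and summaries were made with Python 3.11.15, pandas 2.3.3 and scipy 1.17.1.

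The members and the gene lists were chosen with earlier results of these data known. All 10 members were named. Of each other list the text names the genes that passed in WT D2/Prol with the largest change in either direction, at most 2 in each, and for each member the 3 genes with the highest correlation. Trim72, Klhl31, Fbxo36, Asb4 and Foxo6 were named after their values were seen. The replicate numbers of the labels were taken to pair libraries where libraries with the same number, after removal of the group means, correlated above 0.1 for all 3 numbers. This held in every comparison between pairs of groups except WT D2/Prol and WT D2/D0, where replicate 3 had r = 0.0393 and r = 0.01. The part of the length trend of replicate 1 in these correlations was not tested. The alternatives were voom weights, other scalings, 1 CPM added to each value and other filters. The replicate number as a fixed or random block, only the groups compared and each library left out were also run. Another was an unadjusted p-value under 0.05 with a change over 1.5-fold and 10 CPM in 1 library. The methods of the study state a stricter change, a log2 fold change over 1.5, with the same 10 CPM. That log2 cut, run without the 10 CPM, was added after seeing the data. Lists were described by counts and medians.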

Additional observations from a re-analysis of the deposited data

How the results depend on the processing

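In the 4 comparisons of D2 with Prol or D0, the counts of members past the threshold stayed within 1.5 times the values given in the report. With any 1 library left out they ranged from 5 to 8 in WT D2/Prol and 5 to 6 in KO D2/Prol. In WT D2/D0 they ranged from 5 to 8 and in KO D2/D0 from 5 to 7. The other comparisons had 0 members past the adjusted threshold under every setting run. Without adjustment, the 1.5-fold rule with voom weights and the random block gave 4 of 10 members in KO/WT D2, against 0.939% of all genes. In the interaction, Asb2 passed the log2 cut of 1.5 with that fit (-1.68, unadjusted p = 0.02). The replicate number as a block gave 9 of 10 members in each of the 4 comparisons with D2, and so did the random block with voom weights. In WT D2/Prol and WT D2/D0, where the numbers were not taken to pair the libraries, Foxo3 (adjusted p = 0.00166 and 0.00101) and Fbxo32 (0.0304 and 0.0269) were added by it. The block changed no call in KO D0/Prol, WT D0/Prol or the comparisons of KO with WT beyond those given in the report. Library totals alone, which moved the median of all genes by 0.16 in WT and 0.13 in KO D2/Prol on the log2 scale, turned Foxo1 in WT D2/Prol to 0.13. Leaving out replicate 1 of all groups turned Foxo3 in KO/WT D2 to 0.072, and the interaction of genotype and state (D2 against Prol) to 0.009 for Foxo1 and 0.12 for Foxo3. In KO/WT D0 it turned, among others, Trim55 from -0.681 to 0.873 and Klhl40 from -0.771 to 0.455. With 1 library left out, values that changed sign ranged for Foxo1 from -0.45 to 0.31 in WT D2/Prol, -0.36 to 0.56 in WT D2/D0, -0.50 to 0.18 in KO D2/D0 and -0.59 to 0.16 in KO/WT D2. In KO/WT D2 they ranged from -0.46 to 0.43 for Foxo3, -0.22 to 0.38 for Foxo4 and -0.30 to 0.32 for Fbxo32. For the interaction they ranged from -0.53 to 0.23 for Foxo1, -0.39 to 0.50 for Foxo3, -0.21 to 0.39 for Foxo4, -0.68 to 0.16 for Trim63, -0.72 to 0.001 for Trim54, -0.17 to 0.46 for Fbxo32 and -1.69 to 0.019 for Klhl40. None of these values passed the test, and the cause was not tested. With few counts in Prol and D0, depth limits the size of the changes of Trim63, Trim55, Klhl40 and Asb2.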
